A study of Homo sapiens with 16 samples.

Results

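The positions of trimethylated lysine 27 of histone H3 (H3K27me3) were compared between MDA-MB-231, a human breast cancer line that the labels give as taken from a metastasis, and MCF-10A, a breast epithelial line of non-tumorigenic origin whose cells the labels describe as luminal ductal. The comparison used the 4 H3K27me3 samples of the 16 in the series, chosen by line and antibody: 2 biological replicates of MDA-MB-231 and 2 of MCF-10A. Both lines came from stocks kept in the submitting laboratory, no treatment is labelled, and chromatin of subconfluent cultures was immunoprecipitated with the same rabbit polyclonal antibody from Millipore and sequenced as paired ends (ChIP-seq). The rest of the series holds H3K9me2 and H3K4me3 samples of the same lines and 4 input samples, which were not analysed here. Each replicate was represented by the authors' list of peaks on build hg19, and only peaks on the 22 autosomes were used. Within a list, peaks less than 5 kb apart were stitched into 1 domain, and the number, length and position of the domains were compared. A domain of 10 kb or more is called long. No gene is named and no marker gene of the labelled cell types was checked, because no gene annotation of hg19 was used here. For the same reason no sequence is shown.

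H3K27me3 is written by the histone methyltransferases EZH2 and EZH1, the catalytic subunits of the Polycomb complex PRC2. Its EED subunit binds the finished mark and stimulates further methylation of neighbouring nucleosomes, so that the mark spreads from recruitment sites into broad stretches. CBX proteins of the complex PRC1 read the mark, and genes inside such stretches are usually kept silent. In breast epithelium, as in other tissues, typical Polycomb targets are genes of other lineages and of earlier development, and promoters that carry H3K27me3 together with H3K4me3 are called bivalent.

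The list of MDA-MB-231 replicate 1 stood apart before any stitching. It held 8408 autosomal peaks, against 30238 in MDA-MB-231 replicate 2, and 28393 and 28371 in MCF-10A replicates 1 and 2. Only 8.46% of its peaks had an authors' score of at least 100, against 23.4% in MDA-MB-231 replicate 2, and 26.3% and 25.7% in the MCF-10A replicates. The lists hold no reads, so the sequencing depth behind them is unknown, and fewer reads and a weaker enrichment cannot be told apart in the short list. Values are therefore given for each list, and the counts of classes, chromosomes and windows and the comparison with other marks also without MDA-MB-231 replicate 1. Runs of neighbouring windows and the tests of named windows use all 4 lists.

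MDA-MB-231 replicate 2 had fewer H3K27me3 domains in all but more long ones than either MCF-10A replicate, and its excess over MCF-10A was greater at greater lengths. MDA-MB-231 had 6173 and 13108 domains in replicates 1 and 2, against 15445 and 15464 in MCF-10A (mean 9640.5 ± 4904 against 15454.5 ± 13.4, SD, n = 2 each). The lines did not overlap in this number, which gave p = 0.333 in a two-sided exact permutation test, the smallest p that 2 against 2 libraries allow. With all 4 lists reduced to 8408 peaks the lines did overlap, at 6173 and 4998 domains in MDA-MB-231 and 5659 and 5614 in MCF-10A. Long domains numbered 137 and 1165 in MDA-MB-231 and 821 and 820 in MCF-10A. The MCF-10A values lay between those of the MDA-MB-231 replicates (mean 651 ± 727 against 820.5 ± 0.707, SD, n = 2 each, two-sided exact permutation test, p = 1), so the lines were not separated with all 4 lists. The comparison of long domains thus turned on which MDA-MB-231 list was used.

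In MDA-MB-231 replicate 2 alone, the number of all domains was 0.848 times the MCF-10A mean, while that of long domains was 1.42 times as high. At 20 kb or more, the lists held 16 and 364 domains in MDA-MB-231 replicates 1 and 2, and 171 and 167 in MCF-10A, and the ratio of MDA-MB-231 replicate 2 to the MCF-10A mean was 2.15. At 50 kb or more they held 0 and 43 in MDA-MB-231, and 11 and 14 in MCF-10A, a ratio of 3.44 for replicate 2. The 3 domains of 100 kb or more were all in MDA-MB-231 replicate 2. This gradient rests on 1 library, because replicate 1 was below both MCF-10A lists at 10, 20 and 50 kb. With the 3 longer lists reduced to their 28371 top-scoring peaks, MDA-MB-231 replicate 2 still had 1085 long domains, against 820 in each MCF-10A list, and 39 of 50 kb or more, against 11 and 14. With all 4 lists reduced to 8408 peaks, long domains numbered 137 and 276 in MDA-MB-231, and 195 and 201 in MCF-10A.

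**Figure D1:**
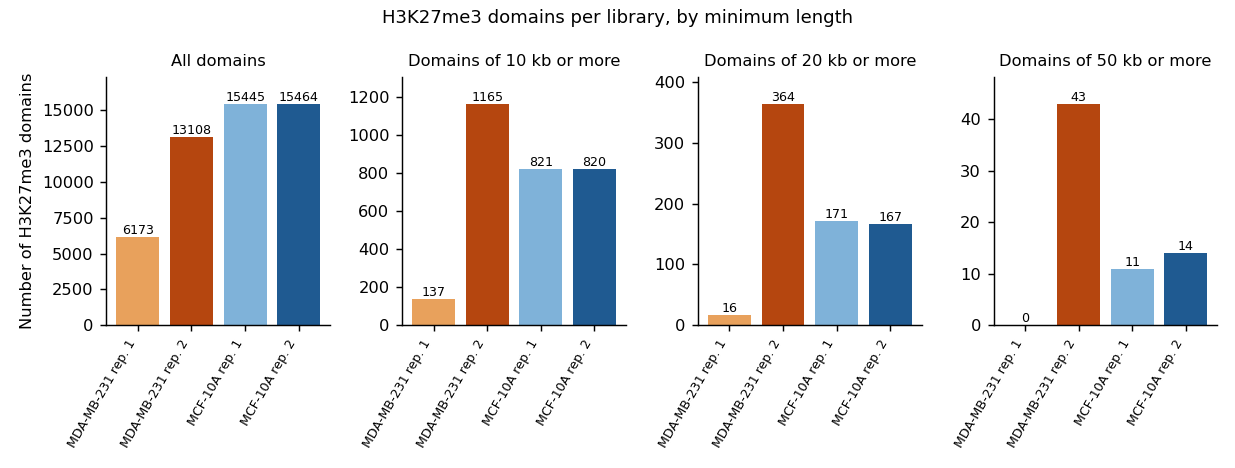
Number of H3K27me3 domains per library (y axes, each starting at 0), for all domains and for those of at least 10, 20 and 50 kb, in 2 MDA-MB-231 and 2 MCF-10A libraries; each bar is 1 library, with its count above it. MDA-MB-231 replicate 2 has fewer domains in all (13108 against 15445 and 15464) and more at 50 kb or more (43 against 11 and 14), while MDA-MB-231 replicate 1 is lowest in every panel.

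The typical domain was short in every list. The median length was 758 and 696 bp in MDA-MB-231, against 751 and 745 bp in MCF-10A (727 ± 43.8 against 748 ± 4.24 bp, SD, n = 2 each, two-sided exact permutation test, p = 1). The medians differed by less than the spread between the MDA-MB-231 replicates. With all 4 lists at equal length they were 758 and 975 bp in MDA-MB-231, against 1128 and 1108 bp in MCF-10A, a difference of −251.5 bp. That setting left MDA-MB-231 replicate 1 whole and kept only the top-scoring peaks of the other lists, so the lists then differed in score. At a score minimum of 100 the medians were 1115 and 1013 bp in MDA-MB-231, against 1166 and 1150 bp in MCF-10A, a difference of −94 bp. In both of these settings the lines did not overlap (two-sided exact permutation tests, p = 0.333, the smallest possible). The length at which the longer domains together hold 50% of all domain bases (N50) was 4311 and 10172 bp in MDA-MB-231, and 6569 and 6603 bp in MCF-10A. The longest domain measured 38201 and 219675 bp in MDA-MB-231, and 91214 and 75199 bp in MCF-10A. On both measures MCF-10A again lay between the MDA-MB-231 replicates.

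**Figure D2:**
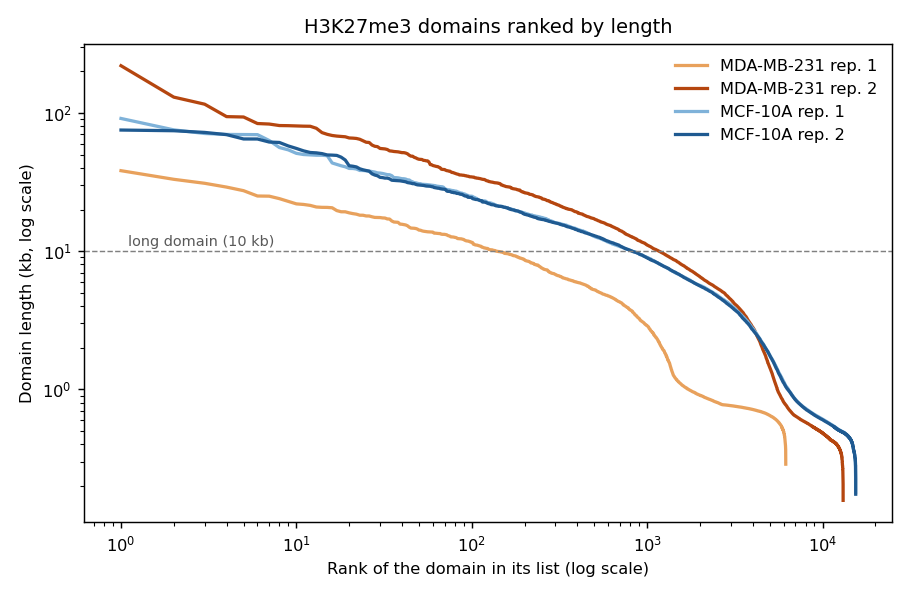
Length of each H3K27me3 domain in kb (y axis, log scale) against its rank by length within its list (x axis, log scale), with 1 curve per library and the 10 kb limit of a long domain dashed. The MCF-10A curves run together, MDA-MB-231 replicate 2 lies above them at the long end up to its longest domain of 219675 bp, and MDA-MB-231 replicate 1 lies below them throughout the long end.

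Total domain length was 10.9 and 45.7 Mb in MDA-MB-231, against 40.2 and 39.9 Mb in MCF-10A (28.3 ± 24.6 against 40.1 ± 0.252 Mb, SD, n = 2 each, two-sided exact permutation test, p = 1). Peaks themselves covered 6.50 and 19.5 Mb in MDA-MB-231, and 21.2 and 21.003 Mb in MCF-10A. MDA-MB-231 replicate 2 thus had more domain bases but fewer peak-covered bases than either MCF-10A list. Long domains held 10.2% and 41.7% of the peak-covered bases in MDA-MB-231, and 26.1% and 25.98% in MCF-10A.

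The build of the domains differed as well. Single-peak domains made up 78.4% and 59.7% of all domains in MDA-MB-231, and 64.6% and 64.5% in MCF-10A. Domains of 10 or more peaks numbered 8 and 370 in MDA-MB-231, and 166 and 160 in MCF-10A. Inside long domains, peaks covered a median of 30.5% and 31.7% of the length in MDA-MB-231, against 36.8% and 36.5% in MCF-10A. Here both MDA-MB-231 replicates were below both MCF-10A replicates (31.1 ± 0.877% against 36.7 ± 0.226%, SD, n = 2 each, two-sided exact permutation test, p = 0.333, the smallest possible). The lower cover was thus not limited to the short list, but the number and width of the peaks behind it differed between the MDA-MB-231 replicates. In long domains of MDA-MB-231 replicate 2 the peaks were narrower (median 618 bp) than in those of MCF-10A (702 and 705 bp), at 4.65 peaks per 10 kb against 4.46 and 4.38. The median gap between neighbouring peaks of a long domain was 1075 bp in MDA-MB-231 replicate 2, and 1045 and 1066 bp in MCF-10A. In MDA-MB-231 replicate 1 the peaks of long domains were wider (766.5 bp) and farther apart, with a gap of 1933 bp and 3.71 peaks per 10 kb.

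Stitching joined H3K27me3 peaks more than those of the other marks in the same lines. Single-peak domains made up 66.8 ± 8.08% of the domains over the 4 H3K27me3 lists, against 88.9 ± 4.57% for H3K9me2, a mark of silenced chromatin, and 83.3 ± 0.684% for H3K4me3, a mark of active and poised promoters (SD, n = 4 each). Peaks covered 51.9 ± 7.00% of domain length for H3K27me3, against 89.7 ± 2.54% for H3K9me2 and 89.5 ± 0.372% for H3K4me3. The 4 H3K27me3 values did not overlap the 4 of the other mark in any of these 4 comparisons (two-sided exact permutation tests, p = 0.0286, the smallest that 4 against 4 lists allow, adjusted p = 0.0286). Without MDA-MB-231 replicate 1 the H3K27me3 means were 62.9 ± 2.79% single-peak domains and 49.4 ± 5.84% cover (SD, n = 3), again without overlap (two-sided exact permutation tests of 3 against 4 lists, p = 0.0286, the smallest possible). These groups of lists mix both lines, and lists of 1 line share their cells' origin. The marks also differed in peak number and width, and they were not compared at equal list length. The short H3K27me3 list, with 8408 peaks, had 78.4% single-peak domains and 59.6% cover. H3K9me2 of MDA-MB-231 replicate 1, with 6086 peaks, had 83.6% and 87.4%. Median peak width was 734 bp in the first of these lists and 2200.5 bp in the second.

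Domains were next matched between lists, with an overlap of at least 1 bp. Of the domains of MDA-MB-231 replicate 1, 52.8% overlapped a domain of MDA-MB-231 replicate 2, and 32.1% and 30.8% one of MCF-10A replicates 1 and 2. Of those of MDA-MB-231 replicate 2, 20.8% overlapped replicate 1 of the same line, and 30.3% and 30.005% overlapped MCF-10A replicates 1 and 2. The short list thus matched its own line best, while replicate 2, matched against the short list, did not. Of the MCF-10A domains, 27.1% and 26.8% of replicates 1 and 2 overlapped MDA-MB-231 replicate 2, against 48.7% for both MCF-10A lists matched with each other. The Jaccard index, the bases in domains of both lists over those in either, was 0.136 within MDA-MB-231 and 0.346 within MCF-10A. Across the lines it was 0.143 and 0.142 for MDA-MB-231 replicate 2, and 0.0674 and 0.0651 for the short list.

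Long domains of 1 line were often present as shorter ones in the other. Of the 1165 long domains of MDA-MB-231 replicate 2, 222 (19.1%) overlapped a long domain in MCF-10A replicate 1, 610 (52.4%) shorter domains only, and 333 (28.6%) none. Against MCF-10A replicate 2 the counts were 255, 568 and 342. The share without any domain was alike in the opposite direction, at 29.2% and 29.4% of the long domains of MCF-10A replicates 1 and 2 matched with MDA-MB-231 replicate 2. Between the MCF-10A replicates it was 0.974% and 1.46%, so a long domain was missing far more often across the lines than between these replicates. Of the 137 long domains of MDA-MB-231 replicate 1, 118 (86.1%) were long in replicate 2 and none was missing there, while 13.9% and 21.2% had no domain in MCF-10A replicates 1 and 2. MDA-MB-231 replicate 2 matched with the short list left 22.6% without a domain.

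**Figure D3:**
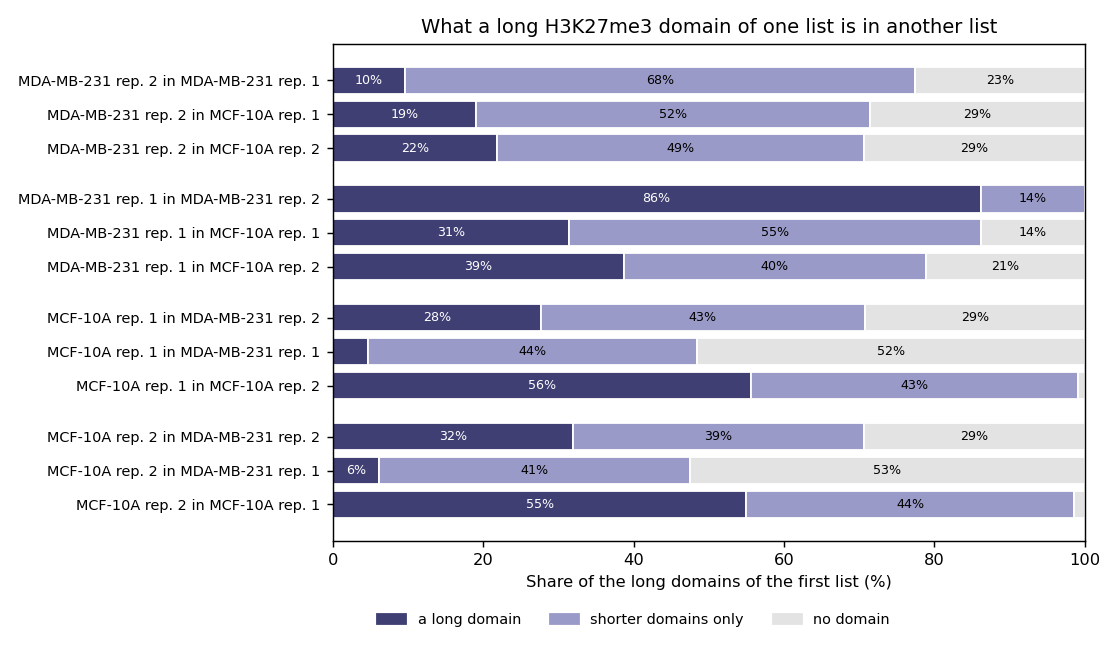
Share of the long H3K27me3 domains (10 kb or more) of the first-named list, in percent (x axis), that overlapped a long domain, shorter domains only, or no domain in the second-named list; each bar is 1 ordered pair of libraries. Of the long domains of MDA-MB-231 replicate 2, 28.6% and 29.4% had no domain in MCF-10A, whereas 0.974% and 1.46% of those of an MCF-10A list had none in the other MCF-10A list.

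The long MDA-MB-231 domains were thinly covered in MCF-10A. Peaks of MCF-10A replicates 1 and 2 covered a median of 6.95% and 6.99% of a long domain of MDA-MB-231 replicate 2, and peaks of MDA-MB-231 replicate 1 covered 7.15%. A long domain of MCF-10A replicate 1 was covered to a median of 8.52% by MDA-MB-231 replicate 2 and to 28.7% by MCF-10A replicate 2. Over these 1165 long domains of MDA-MB-231 replicate 2, 732 had a peak of the short list and of at least 1 MCF-10A list, 170 of the short list only, 180 of MCF-10A only, and 83 of neither. The 43 domains of 50 kb or more all overlapped the short list, and 39 and 41 of them overlapped MCF-10A replicates 1 and 2. The domains of greatest length in MDA-MB-231 replicate 2 were therefore mostly places with at least 1 bp of an H3K27me3 domain in both lines. A longer place has more room for such an overlap. Of the long domains of this list, 71.4% and 70.6% overlapped MCF-10A replicates 1 and 2, against 30.3% and 30.005% of all its domains.

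Places were next chosen for being long in both lines, which limits how far their lengths can differ and rests on 1 MDA-MB-231 list. A long domain of MDA-MB-231 replicate 2 overlapped long domains of both MCF-10A lists at 159 places, with median lengths of 20089 bp in MDA-MB-231 replicate 2, and 19157 and 18698 bp in MCF-10A. MDA-MB-231 replicate 2 was longer than both MCF-10A lists at 67 of these places (42.1%) and shorter than both at 59 (37.1%). The short list had a peak at 140 of the 159. The edges of long domains agreed less across the lines than between the MCF-10A replicates. Of the edges of long domains of MDA-MB-231 replicate 2 that were also long in MCF-10A, 20.7% and 16.5% lay within 1 kb of the matching edge in replicates 1 and 2, against 38.5% and 39.1% between the MCF-10A lists. The median distance between matching edges was 6132 and 6006 bp across the lines, and 2155.5 and 2101.5 bp between the MCF-10A lists. Within MDA-MB-231 it was 7186.5 and 6546 bp, no closer than across the lines.

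Named domains show this pattern. They are the 5 longest of each list, and the 5 merged domains of each class with the most peak-covered bases in the poorer list of the lists that hold them; several of them are described here. All 4 lists together gave 32460 merged domains. The longest domain of all was chr17:77230006-77449680, which MDA-MB-231 replicate 2 held as 1 stretch of 219675 bp with 110 peaks. MDA-MB-231 replicate 1 had 33 peaks there, and MCF-10A had 63 and 67, in shorter domains of at most 17954 bp in MDA-MB-231 replicate 1, and 27560 and 28529 bp in MCF-10A. Its peak cover was 12.2% and 39.3% in MDA-MB-231, and 25.1% and 25.2% in MCF-10A. The mark was thus present there in both lines, and most densely in MDA-MB-231 replicate 2.

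The next longest domains of MDA-MB-231 replicate 2 were alike. At chr1:204904489-205034631, peaks covered 9.60% and 41.6% in MDA-MB-231, against 15.5% and 12.8% in MCF-10A. At chr11:117456303-117571994 the cover was 10.4% and 45.8% in MDA-MB-231, and 28.5% and 23.4% in MCF-10A. At both places the MCF-10A values lay between those of the MDA-MB-231 replicates. The domain chr20:57316139-57410183 differed, since both MDA-MB-231 replicates (25.8% and 54.1%) were above both MCF-10A replicates (13.5% and 11.8%). It also carried H3K9me2 peaks over 37.6% and 29.8% of its length in MDA-MB-231, against 3.90% and 5.39% in MCF-10A, and no H3K4me3 peak in any list.

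Named long MCF-10A domains on chromosome 8 had little peak cover in MDA-MB-231. The longest of MCF-10A replicate 1, chr8:6815599-6906812, was covered to 1.403% and 2.01% by the 2 and 4 MDA-MB-231 peaks there, against 63.3% and 55.6% by the 49 and 41 MCF-10A peaks. The domain chr8:11527681-11603110 was covered to 0.822% and 4.81% in MDA-MB-231, and to 47.3% and 43.5% in MCF-10A. Both MDA-MB-231 replicates were far below both MCF-10A replicates at these places. The longest domain of MCF-10A replicate 2, chr11:2107451-2182649, was covered to 5.66% and 10.9% in MDA-MB-231, and to 39.2% and 40.3% in MCF-10A. On chromosome 17, chr17:77093771-77163665 was covered to 13.5% and 44.8% in MDA-MB-231, and to 60.8% and 55.7% in MCF-10A. This chromosome 17 domain lies near the 219675 bp stretch described above, and its MCF-10A cover was above that of both MDA-MB-231 lists.

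Of the 32460 merged domains, 937 (2.89%) were in both MDA-MB-231 lists and no MCF-10A list, 3993 (12.3%) in both MCF-10A lists and no MDA-MB-231 list, and 1477 (4.55%) in all 4. The short list limits the MDA-MB-231 count and the shared one, and 22437 (69.1%) were in 1 list only. Without MDA-MB-231 replicate 1 there were 30358 merged domains, with 8102 in MDA-MB-231 replicate 2 only, 4204 in both MCF-10A lists only and 3018 in all 3. Of the 8102, which rest on 1 list, 253 were long and the median length was 576 bp. The domains in both MDA-MB-231 lists only had a median length of 4705 bp with 183 long ones, those in both MCF-10A lists only 2576 bp with 364 long ones, and those in all 4 lists 13057 bp with 932 long ones. Merged domains of all 4 lists were thus the longest class, although a longer place has more room for an overlap.

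Of the domains in MDA-MB-231 lists only, 3 of the 5 named lay within 2 Mb of each other on chromosome 20. At chr20:46351859-46411349 peaks covered 19.7% and 50.7% in MDA-MB-231, and both MCF-10A lists were at 0. The others were chr20:46301705-46347081, at 15.3% and 46.7% in MDA-MB-231, and chr20:48018384-48064989, at 23.1% and 52.3%, again with MCF-10A at 0. The best covered in the poorer list was chr19:50589062-50638641, at 27.4% and 56.6% in MDA-MB-231, with no H3K9me2 or H3K4me3 peak in any list of either line. On chromosome 9, chr9:137796834-137864429 was covered to 10.05% and 32.5% in MDA-MB-231. Of the domains in MCF-10A lists only, chr2:223155232-223177427 was at 0 in both MDA-MB-231 lists and covered to 59.5% and 59.6% in MCF-10A. The domain chr7:96398085-96446799 was at 0 in MDA-MB-231 and covered to 26.4% and 33.0% in MCF-10A. At chr3:128191334-128216487, where H3K27me3 covered 39.7% and 43.3% in MCF-10A and 0 in MDA-MB-231, H3K4me3 peaks covered 14.4% and 14.7% in MDA-MB-231, against 2.96% and 3.18% in MCF-10A. It was the named domain with the widest H3K4me3 cover.

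**Figure D4:**
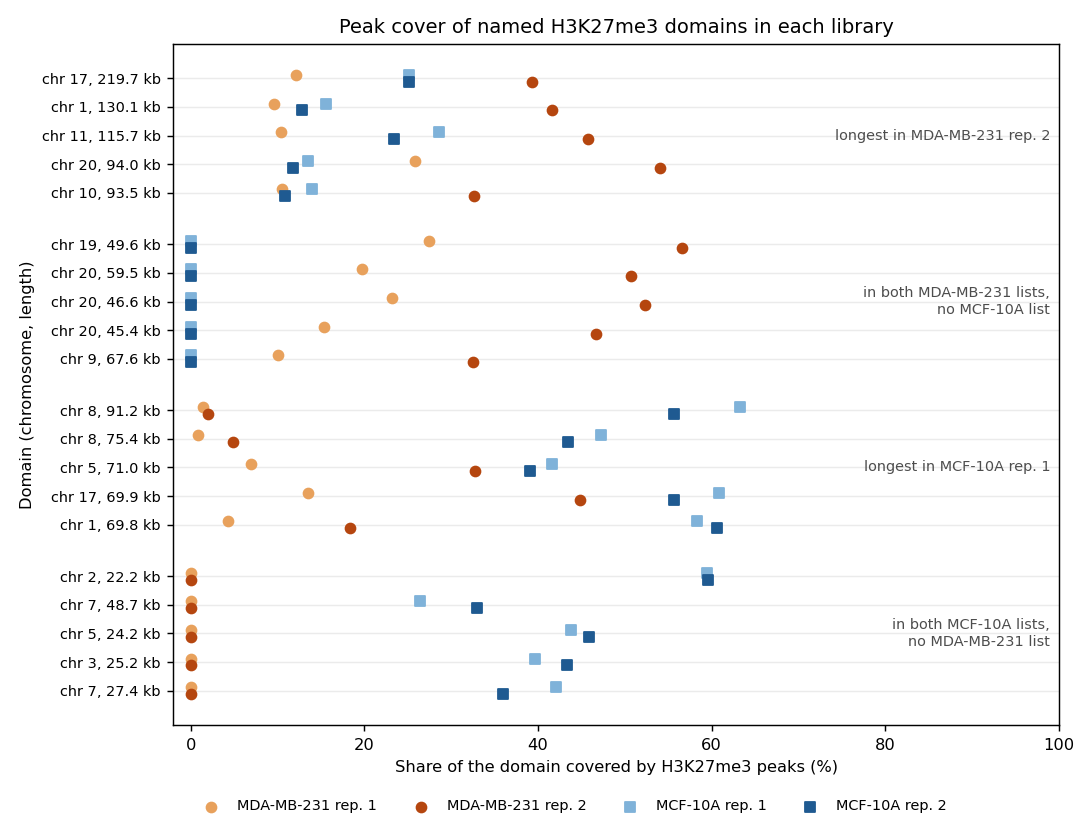
Share of each named H3K27me3 domain covered by H3K27me3 peaks (x axis, percent) in the 4 libraries, for 5 domains in each of 4 groups (y axis, chromosome and length in kb); each point is 1 library. The longest domains of MDA-MB-231 replicate 2 keep some cover in MCF-10A, such as 25.1% and 25.2% on chromosome 17, whereas the chromosome 8 domains of MCF-10A shown here have 1.403% and 2.01% or 0.822% and 4.81% in MDA-MB-231.

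The chromosomes held different shares of the domain bases in both lines, and here the short list resembled the long list of its own line. Chromosome 20 held 16.2% and 11.8% of the domain bases of MDA-MB-231, against 4.91% and 5.12% of those of MCF-10A. Chromosome 8 held 2.34% and 2.01% in MDA-MB-231, and 10.5% and 11.0% in MCF-10A. Chromosome 16 held 1.02% and 0.917% in MDA-MB-231, and 6.48% and 6.29% in MCF-10A. The lines did not overlap on any of these chromosomes, although the MDA-MB-231 replicates themselves lay apart on chromosome 20. The log2 ratios of the mean shares, MDA-MB-231 over MCF-10A, were 1.49 for chromosome 20, −2.31 for chromosome 8 and −2.72 for chromosome 16.

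Both MDA-MB-231 shares were above both MCF-10A shares on 9 of the 22 autosomes (40.9%) and below both on 11 (50.0%), and they overlapped on 2, chromosomes 3 and 5. Without MDA-MB-231 replicate 1, the share of MDA-MB-231 replicate 2 was above both MCF-10A shares on 10 autosomes and below both on 11. Beside chromosome 20, the higher shares included chromosome 11, at 11.8% and 12.1% in MDA-MB-231 against 6.37% and 6.49% in MCF-10A, and chromosome 14, at 3.86% and 4.03% against 2.04% and 1.98%. The lower ones included chromosome 13, at 0.330% and 0.236% in MDA-MB-231 against 1.18% and 1.29% in MCF-10A. The shares of a list sum to 100%, so a gain on 1 chromosome lowers the others, and no test was made of them. The chromosomes were compared after earlier values were seen.

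The long domains followed the same chromosomes. Chromosome 20 had 42 and 157 long domains in MDA-MB-231, against 41 and 52 in MCF-10A, so that the short list, with 137 long domains in all, had as many there as an MCF-10A list. Chromosome 8 had 1 and 13 in MDA-MB-231, against 106 and 111 in MCF-10A. Chromosome 16 had 0 and 2 in MDA-MB-231, against 64 and 61 in MCF-10A. On chromosomes 8 and 16 both MDA-MB-231 lists were below both MCF-10A lists in plain counts as well as in shares.

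The other marks moved with these chromosomes to different degrees. For H3K9me2 the log2 ratio of the share of domain bases was 2.91 on chromosome 20, −1.88 on chromosome 8 and −4.10 on chromosome 16. For H3K4me3 it was 0.16, −0.13 and −0.27 on the same chromosomes. DNA copy number was not measured here, and a gain or loss of DNA and a change of the mark cannot be told apart in these lists.

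**Figure D5:**
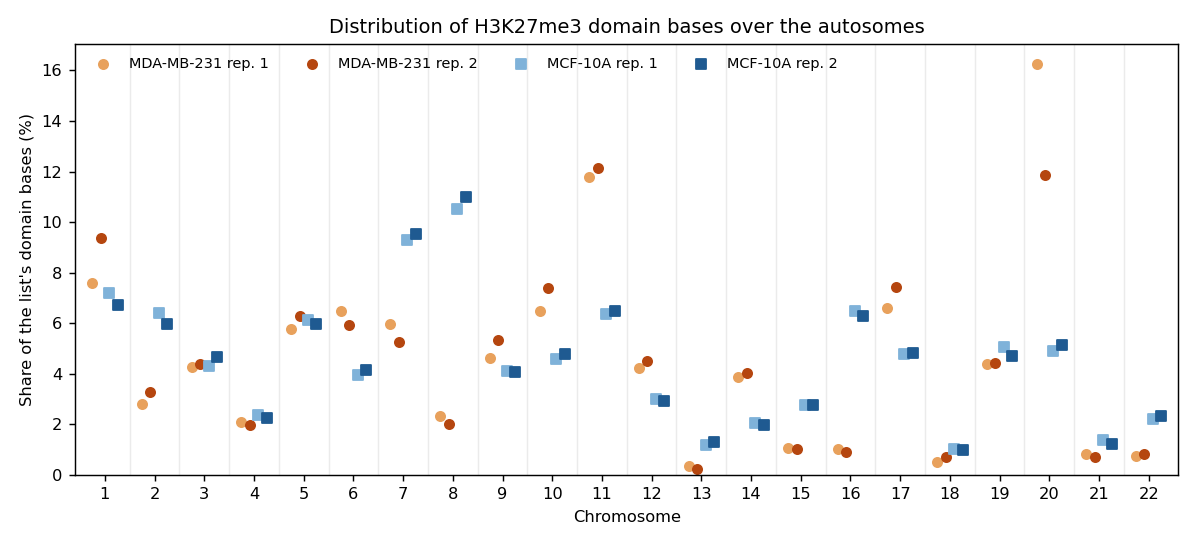
Share of the H3K27me3 domain bases of each list that lay on each autosome (y axis, percent; x axis, chromosomes 1 to 22), with 1 point per library. The MDA-MB-231 points lie above the MCF-10A points on chromosomes 20 (16.2% and 11.8% against 4.91% and 5.12%) and 11, and below them on chromosomes 8 and 16.

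Position was then tested in windows of 500 kb. Domain bases per window were scaled to bp per Mb of the library's total domain length (bp/Mb), a pseudocount of 100 bp/Mb was added, and the log2 values were tested with limma over the 3146 windows with domain bases in at least 2 of the 4 libraries. At an adjusted p under 0.05, 309 windows (9.82%) were higher and 944 (30%) lower in MDA-MB-231. In 561 of the 944 lower windows neither MDA-MB-231 list had domain bases, and in 55 of the 309 higher windows neither MCF-10A list had any. Such windows entered the test only through the line where they are covered, so the counts above are a description of the lists. Among the 2128 windows with domain bases in both lines, 254 were higher and 383 lower. Where at least 3 of the 4 libraries had to hold domain bases, 333 windows were higher and 470 lower. The median log2 ratio of all windows tested was −0.35, and the values of single windows are not corrected for it. The count of lower windows depends on the libraries: it was 462 without MDA-MB-231 replicate 1, 508 without MDA-MB-231 replicate 2, and 191 or 186 without MCF-10A replicate 1 or 2, when 336, 306, 153 and 141 windows were higher. Without scaling to the library, 88 windows were higher and 1058 lower, so the higher calls are relative to the list's own total.

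The calls lay unevenly over the chromosomes. On chromosome 20, 36 of 96 windows (37.5%) were higher and 4 (4.17%) lower in MDA-MB-231. On chromosome 8, 1 of 200 (0.5%) was higher and 127 (63.5%) lower, and on chromosome 16, 1 of 118 (0.847%) was higher and 65 (55.1%) lower. Among windows with domain bases in both lines, 30 of 80 were higher and 3 lower on chromosome 20, 1 of 100 was higher and 55 lower on chromosome 8, and 0 of 86 were higher and 45 lower on chromosome 16. Without MDA-MB-231 replicate 1, 36 of 85 windows were higher and 3 lower on chromosome 20, 0 of 198 higher and 79 lower on chromosome 8, and 0 of 116 higher and 53 lower on chromosome 16. The longest run of neighbouring higher windows was also on chromosome 20, with 11 windows from 43000001 to 48500000 that held 533 and 1569 kb of domains in MDA-MB-231, against 328 and 386 kb in MCF-10A. It spans the named chromosome 20 domains at 46 and 48 Mb. The longest run of lower windows was on chromosome 8, with 10 windows from 23500001 to 28500000 that held 7.43 and 30.02 kb in MDA-MB-231, against 519 and 633 kb in MCF-10A. Most runs were single windows, 171 of those higher and 443 of those lower in MDA-MB-231.

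The 5 windows with the smallest p in each direction were named. Of the higher ones, 3 lay on chromosome 20 and the others on chromosomes 3 and 9, which had the smallest p, and 3 of the lower ones lay on chromosome 8. At chr20:46000001-46500000, MDA-MB-231 had 7176 and 3882 bp/Mb of domains, and MCF-10A had 0 and 24.2 bp/Mb (limma, log2 ratio 5.59 with SE 0.398, adjusted p = 0.0171). At chr3:9000001-9500000, MDA-MB-231 had 2355 and 2958 bp/Mb, and MCF-10A had 0 and 12.04 bp/Mb (limma, log2 ratio 4.69 with SE 0.268, adjusted p = 0.0171). In MCF-10A only replicate 2 had domain bases in these windows. The MDA-MB-231 lists alone thus met the filter of the test, and the p of these windows is a description. Both windows were nearly empty in MCF-10A, so their ratios depend on the pseudocount: at 20 and 500 bp/Mb they were 7.48 and 3.50 for the chromosome 20 window, and 6.71 and 2.63 for the chromosome 3 window. The window chr20:49500001-50000000 was not, since MDA-MB-231 had 4869 and 4472 bp/Mb there, and MCF-10A had 516 and 486 bp/Mb (limma, log2 ratio 2.99 with SE 0.212, adjusted p = 0.0171). Unscaled, it did not pass (log2 ratio 2.32, limma adjusted p = 0.145). Scaled within each chromosome, the log2 ratio was 1.64 there, 4.77 in the window from 46000001 and 2.77 in that from 45500001, which was 3.83 otherwise (limma adjusted p = 0.0265 for each). At chr9:137500001-138000000, MDA-MB-231 had 2306 and 3205 bp/Mb, while both MCF-10A lists were at 0. This window entered the test only through MDA-MB-231, and its p is not given.

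In the other direction, at chr8:24500001-25000000, MDA-MB-231 had 67.3 and 47.97 bp/Mb, and MCF-10A had 2967 and 3367 bp/Mb (limma, log2 ratio −4.37 with SE 0.245, adjusted p = 0.0171). At chr8:81500001-82000000, MDA-MB-231 had 66.3 and 38.5 bp/Mb, and MCF-10A had 2646 and 2547 bp/Mb (limma, log2 ratio −4.15 with SE 0.251, adjusted p = 0.0171). These windows lie far apart on the chromosome and had similar log2 ratios. Their MDA-MB-231 values were all below the pseudocount of 100 bp/Mb, so the ratios depend on it. At 20 and 500 bp/Mb the ratio was −5.37 and −2.72 in the window from 24500001, and −5.20 and −2.49 in that from 81500001. Scaled within each chromosome, with the pseudocount of 100, the log2 ratios of these windows were −2.94 and −2.77 (limma adjusted p = 0.0265 for each). Both windows were thus low also against the rest of chromosome 8. No MDA-MB-231 list had domain bases at chr7:96000001-96500000, where MCF-10A had 2274 and 3047 bp/Mb, or at chr15:70000001-70500000, where MCF-10A had 1880 and 1665 bp/Mb. Both windows entered the test only through MCF-10A, and their values are a description. The first of these windows holds the MCF-10A domain of chromosome 7 named above.

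H3K27me3 domains of MDA-MB-231 coincided with H3K9me2 of the same line more than those of MCF-10A did. H3K9me2 peaks of MDA-MB-231 replicates 1 and 2 covered 13.5% and 9.77% of the domain bases of MDA-MB-231 replicate 1, and 10.1% and 6.91% of those of replicate 2. In MCF-10A, H3K9me2 peaks of replicates 1 and 2 covered 4.04% and 3.28% of the domain bases of replicate 1, and 4.002% and 3.28% of those of replicate 2. The values of the lines did not overlap. The MDA-MB-231 H3K9me2 lists held fewer peaks (6086 and 4980, against 10418 and 8701 in MCF-10A), but wider ones. Median width was 2200.5 and 1873.5 bp in MDA-MB-231, against 1606 and 1577 bp in MCF-10A. The bases under these peaks differed less, at 15.1 and 10.4 Mb in MDA-MB-231 and 18.6 and 15.3 Mb in MCF-10A. The H3K27me3 domains of MDA-MB-231 replicates 1 and 2 were covered to only 3.30% and 2.63%, and 2.87% and 2.29%, by H3K9me2 of MCF-10A. The opposite direction showed no such preference for the own line. H3K9me2 peaks of MDA-MB-231 replicates 1 and 2 covered 5.18% and 3.86% of the domain bases of MCF-10A replicate 1. They covered 5.19% and 3.85% of those of MCF-10A replicate 2, so MCF-10A domains were not covered more by H3K9me2 of their own line. Of the long domains, 56.9% and 50.37% in MDA-MB-231 replicate 1 and 47.8% and 40.3% in replicate 2 held an H3K9me2 peak of the same line, against 23.5% and 21.1%, and 23.8% and 20.7%, in MCF-10A replicates 1 and 2. The overlaps are a description, with no test.

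Overlap with H3K4me3 was small. Of all domains, 1.67% and 1.88% in MDA-MB-231 replicate 1 and 1.95% and 2.12% in replicate 2 held an H3K4me3 peak of the same line. In MCF-10A the shares were 2.65% and 3.73% for replicate 1, and 2.23% and 3.27% for replicate 2. All MCF-10A shares were above all MDA-MB-231 shares with all peaks, but not at a score minimum of 100. There MDA-MB-231 replicate 1 reached 3.11% with H3K4me3 replicate 2, above the 2.997% and 2.96% of MCF-10A replicates 1 and 2 with H3K4me3 replicate 1. Long MCF-10A domains more often held an H3K4me3 peak of the other line than of their own: H3K4me3 of MDA-MB-231 was found in 11.0% and 11.3% of those of MCF-10A replicate 1, and in 10.9% and 11.5% of those of replicate 2. H3K4me3 of MCF-10A itself was found in 5.97% and 8.404%, and in 6.22% and 9.27%. For the long domains of MDA-MB-231 replicate 2 the difference was smaller, with H3K4me3 of MDA-MB-231 in 3.61% and 4.21%, and of MCF-10A in 4.72% and 6.18%.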

How the data were processed

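ChIP-seq of H3K27me3 was represented by 4 deposited peak lists, with the 8 lists of H3K9me2 and H3K4me3 used beside them. Per the submitters' processing notes, CASAVA 1.6, Bowtie2, MACS 1.4, bedtools and hg19 were used, with no roles, settings or order given. Per the labels' protocols, replicates were also combined, but the lists used here are per replicate. Each list gives peak coordinates and an authors' score, of a scale not given in the sources used here, which was at least 50 in the deposited files and was used only to select top peaks of a list. Without reads the depth is unknown, and precision rests on 2 replicates per line. The labels call the replicates biological.

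Peaks on the X chromosome, Y and unplaced contigs were left out. No list held overlapping peaks. Coordinates are printed counting from 1. Domains, overlaps and two-sided exact permutation tests were computed with Python 3.11.15 and NumPy 2.4.6, windows with limma 3.58.1 (trend and empirical Bayes, Benjamini-Hochberg adjustment over all windows tested, threshold 0.05) in R 4.3.3, and figures with matplotlib 3.10.9. Log2 ratios of windows include the pseudocount of 100 bp/Mb, which understates the change of low windows, and none is given against a line listed at 0. In simulated data with 200 of 3146 windows changed, 38.8%, 98.5% and 100% were recovered at 2-, 4- and 16-fold, and 1.86% of the calls were false. The simulation gave every window the same spread and every library the same total length, unlike the real lists. Its rates are therefore a check of the code and not the error rates of the calls above.

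Named domains were the 5 longest of each list and, for each class of merged domains, the 5 with the most peak-covered bases in the poorer list. Named windows were the 5 with the smallest p in each direction. The members, rules and tests were chosen with earlier results of these data known. The comparison of chromosomes and some alternatives were added after the data were seen: the 3 long lists at equal length, with and without the short list; other marks and chromosomes without it; and window calls per chromosome without it or over windows with domain bases in both lines. Promoters and marker genes were not analysed here, because no annotation of hg19 was used.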

Additional observations from a re-analysis of the deposited data

Results flagged for a closer look

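H3K27me3 peaks on contigs not placed on a chromosome position were outside all comparisons above. They numbered 22 and 67 in MDA-MB-231 replicates 1 and 2, and 117 and 122 in MCF-10A replicates 1 and 2. Both MDA-MB-231 lists held fewer than both MCF-10A lists.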

How the results depend on the processing

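No comparison of domain number, length, bases or long domains could pass a test at 2 against 2 libraries, so the settings below concern directions and sizes, and the cause of each change was not tested. The log2 ratio of domain number, MDA-MB-231 over MCF-10A, stayed below 0 in all 14 settings (-1.32 to -0.01), and with each library left out in turn it ranged from -1.32 to -0.24. The value of -0.01 was that of equal list lengths, where the lines overlapped in domain number and hardly differed in its mean. Leaving out each library in turn gave -1.88 to 0.19 for the log2 ratio of domain bases, -52 to 10 bp for the difference of median length, -2.58 to 0.51 for the log2 ratio of long domains and -15.9 to 15.6 percentage points for the difference of their share of peak-covered bases. The positive values of the last pair and of domain bases came from leaving out MDA-MB-231 replicate 1; with the other lists then at equal length they were 0.40, 14.6 points and 0.11. The long-domain ratio was also positive with all lists at equal length (0.06), from 20 kb (0.17) and from 50 kb (0.78), and the share difference was 1.115, 2.88 and 1.41 points at these settings and 0.588 points with domains of at least 2 peaks. The difference of median length, MDA-MB-231 minus MCF-10A, was -21 bp, but 11 bp with stitching at 1 kb, 219.75 bp at 20 kb and 399.25 bp with domains of at least 2 peaks.

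The share of MDA-MB-231 replicate 2 domains that overlapped MCF-10A and that of MCF-10A domains that overlapped the other MCF-10A list were 30.1% and 48.7%. They were 23.2% and 43.96% with stitching at 1 kb, 26.1% and 45.8% at 2.5 kb, 35.99% and 52.5% at 10 kb and 42.4% and 56.6% at 20 kb. With a score of at least 100 they were 22.5% and 54.96%, at equal list lengths 23.1% and 54.7%, with domains of at least 2 peaks 32.5% and 59.9%, with X 29.9% and 48.2%, and with an overlap of 50% of the domain 17.4% and 34.2%. With the 3 long lists at equal length, with or without the short list, the MDA-MB-231 share was 30.6%. The first share was below the second in each of these settings, and with each library left out it ranged from 30.005% to 30.3%, and the second was 48.7%.

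Merged domains of MDA-MB-231 only numbered 1559 with stitching at 1 kb, 387 at 20 kb and 151 with a score of at least 100, and 1165 to 8102 with each library left out (7685 without the short list at equal lengths). Those of MCF-10A only numbered 2371 at 20 kb, 1997 with that score, 1885 at equal lengths and 2588 with domains of at least 2 peaks, and 4204 to 10974 with each library left out. Those of all lists numbered 161 with that score, 551 at equal lengths, 568 with a cover of at least 10% and 1574 to 3018 with each library left out (2938 without the short list at equal lengths).

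Windows higher in MDA-MB-231 numbered 474 with peak-covered bases, 111 with a score of at least 100, and 141 to 336 with each library left out. Unscaled there were 88, or 7.68% of the calls against 24.7%, and the median log2 ratio of all windows was -1.06 instead of -0.35. Lower windows numbered 470 where at least 3 of 4 libraries held domain bases, where 41.5% of the calls were higher, and 186 to 508 with each library left out. With a library left out, the lone library of a line is assumed to vary like the pair of the other line. Domain bases in at least 2 libraries were still required, so windows covered only in the line that lost a library were not tested. Counts and shares of calls with a library left out are therefore over other windows than those with all 4 lists. The share of higher calls was 12.5% with a score of at least 100 and 37.6% to 44.5% with each library left out. The replicate block gave 474 higher and 1262 lower windows. Deviations of same-numbered libraries had a correlation of -0.00087 over the windows. This shows no common deviation, but it cannot tell whether samples of the same number were processed together. The 10 named windows were picked for the smallest p in these same data, so their calls at other settings are not independent support. Of the 130 settings in which a named window was tested, none reversed its direction. Settings that left a window untested are not counted, such as the chromosome 3 window at a score minimum of 100. The call was lost in 3 settings, all on chromosome 20. These were the window from 49500001 unscaled (limma adjusted p = 0.145), and that from 45500001 both unscaled (limma adjusted p = 0.061) and at a score minimum of 100 (limma adjusted p = 0.516). With a score of at least 100 for all marks, H3K9me2 covered 7.82% of MDA-MB-231 and 2.29% of MCF-10A H3K27me3 domain bases, against 10.1% and 3.65%. The alternatives for promoters were not run. The lists give no depth, so a place without a peak is not shown to lack the mark.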
